A study of Mus musculus with 2 samples.

Results

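The C-type lectins, siglecs and galectins are sugar-binding proteins by which macrophages read microbial, self and damaged surfaces. The group was defined by gene symbol, from probe sets with 1 listed gene, and was chosen with earlier results of these data known. It took symbols that start with Clec and a digit, Cd209, Siglec, Lgals or Colec, and added Mrc1, Mrc2, Mgl2, Cd22, Cd33, Cd72 and Cd93. This gave 66 genes on 67 probe sets, of 19938 measured genes on 21789 such probe sets. Expression was measured in mouse colonic lamina propria macrophages, sorted for CD45, IAb, CD11b and F4/80 and against CD103. The control array held RNA from mice on drinking water for 5 days. The DSS array held RNA from mice whose water carried 3% dextran sulfate sodium, a sugar polymer that damages the gut epithelium and causes colitis, for the same 5 days. The labels state neither strain, age and genotype nor the number of mice behind an array.

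C-type lectin receptors carry a fold that in many members binds sugars in a calcium-dependent way. Some, such as dectin-1 and Mincle, signal through the kinase Syk and the adaptor Card9 to cytokine genes, others carry inhibitory ITIM motifs that recruit phosphatases, and endocytic members such as the mannose receptor take up their ligands. Siglecs bind sialic acid on cell surfaces and are mostly inhibitory. Galectins are made without a signal peptide and bind galactose-containing glycans outside and inside the cell.

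All values are log2 signals, and a difference is the DSS signal less the control signal. There was 1 array in each group, so no difference has a replicate error, an SE or a p-value, and each compares 2 arrays. Levels are not compared between genes, since probe sets differ in how they respond. A gene passed the signal rule with a signal no lower than the array median, 5.70 for control and 5.62 for DSS, on 1 array or both. Of the 66 genes, 45 passed (68.2%), against 56.0% of all measured genes. The remaining 21 had differences of -0.62 to 0.49, with 0 at 2-fold.

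On the DSS array, 3 of the 45 lectin genes past the signal rule were higher by 2-fold or more, and 8 were lower by 2-fold or more. Clec4e (Mincle), Clec5a and Clec4d were the higher genes, all of them activating receptors of myeloid cells. Cd209f, Colec12, Mgl2, Siglech, Mrc1, Cd209d, Cd93 and Cd209b were the lower ones, most of them endocytic or scavenger receptors. The share at least 2-fold higher was 6.67%, beside a background of 3.99% over the 11163 genes past the rule. The share at least 2-fold lower was 17.8%, beside a background of 3.03%. Of the lower genes, Mgl2, Mrc1 and Cd93 were in the group by name, and the members were chosen with earlier results of these data known. At 1.5-fold, 8 were higher (17.8%, background 9.85%) and 14 lower (31.1%, background 8.8%). At 3-fold, 1 was higher (2.22%, background 1.64%) and 2 were lower (4.44%, background 1.06%). The median difference was -0.24, beside -0.03 for all genes past the rule, and 27 of the 45 differences were negative (60%, beside 53.0% of all genes). The genes Cd209f, Colec12 and Cd209b passed the rule on the control array only, so they had to be lower in DSS to some degree. Clec9a and Clec2h passed it on the DSS array only, which favours a positive difference without forcing one. Among the 40 genes past the rule on both arrays, 3 were higher and 5 were lower by 2-fold or more. The background was 3.29% and 2.67% of the 10052 genes past the rule on both arrays.

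**Figure D1:**
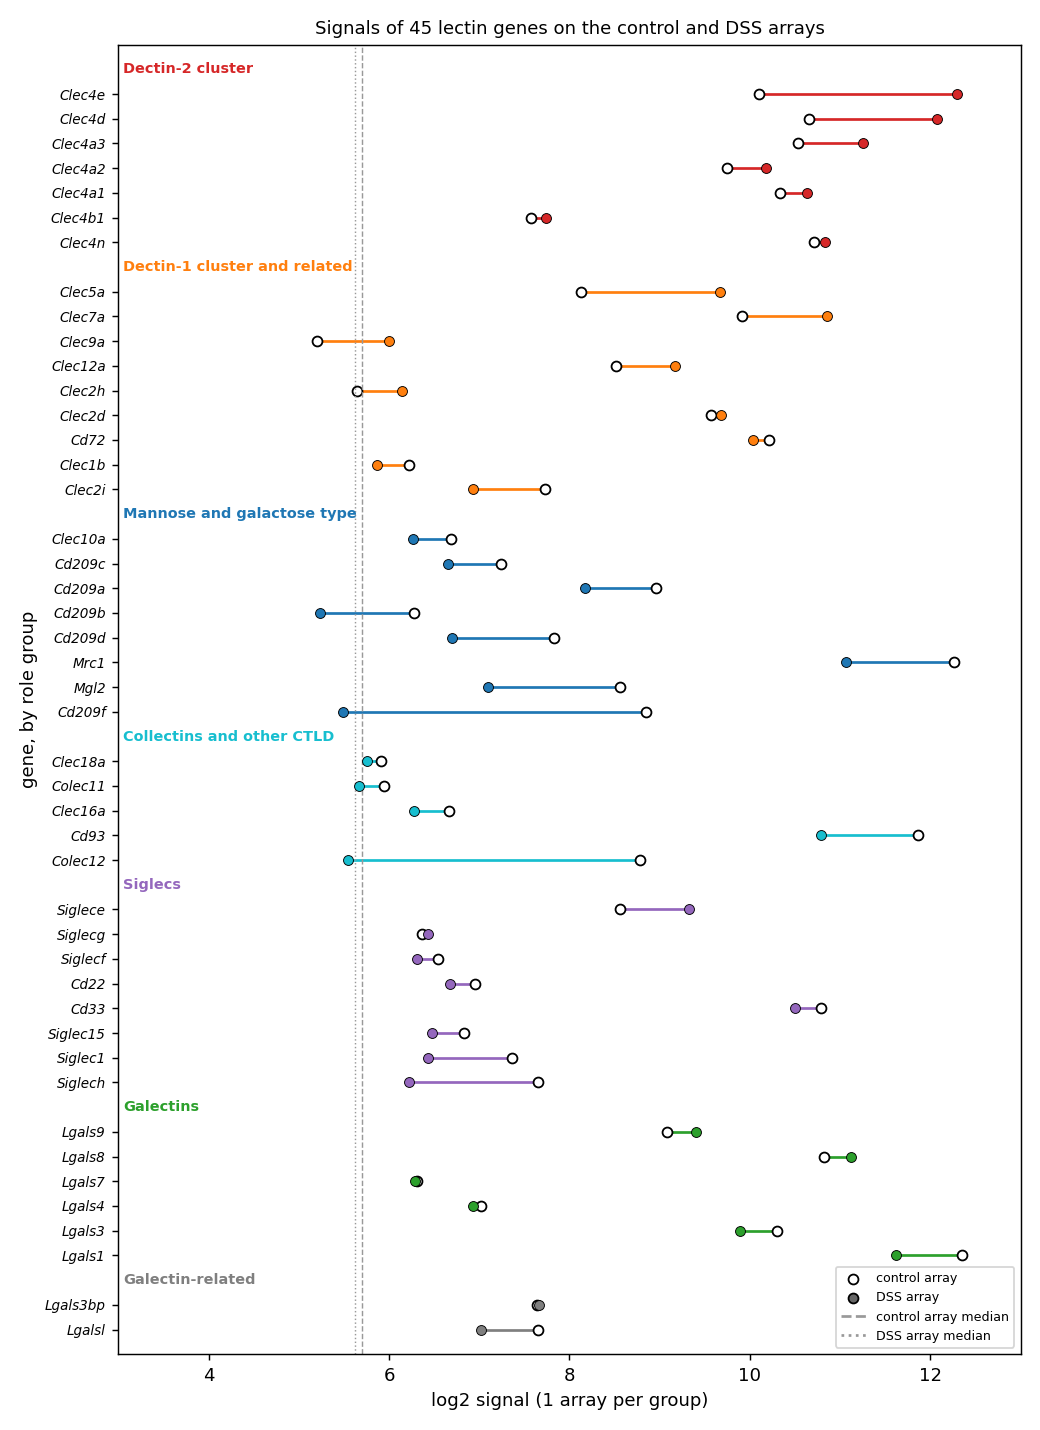
Log2 signals of the 45 lectin genes past the signal rule, grouped by role. Open points are the control array, filled points the DSS array, the connecting line is the difference, and the vertical lines mark the array medians (5.70 and 5.62). Clec4e, Clec4d and Clec5a lie to the right of their control signals by over 1 log2 unit, and Cd209f and Colec12 end below the medians on the DSS array.

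Both arrays held macrophage transcripts. Adgre1, which encodes F4/80, read 11.65 in control and 10.82 in DSS, the complement gene C1qa 11.17 and 10.32, and Itgae, which encodes CD103, was under the median of each array (4.89 and 4.91). The RNA on the DSS array also differed in markers of other myeloid cells, which are given here as measured values. All 10 neutrophil markers were at least 2-fold higher, with a median difference of 4.47, and their summed linear signal was 1585 in control and 26605 in DSS. All 7 measured monocyte markers were at least 2-fold higher, with a median of 3.85 and summed signals of 1894 and 17703. All 11 resident macrophage markers had negative differences, 5 of them at least 2-fold, with a median of -0.99 and summed signals of 19836 and 8575. Neutrophils and monocytes also express several of the lectin receptors below. The cells had been sorted for IAb and F4/80, and the part of neutrophils or monocytes in the differences was not tested. In such bulk RNA, fewer cells of a type and less RNA per cell cannot be told apart.

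The Dectin-2 cluster holds 9 receptor genes side by side on chromosome 6, and all 9 had positive differences, 7 of them past the signal rule. Over all genes past the rule, 53.0% of differences were negative. The median difference of the 7 was 0.44, and 0.33 under loess centring, where Clec4n turned negative. Of the 7, 2 were at least 2-fold higher, beside a background of 3.99%. Clec4e encodes Mincle, a receptor for mycobacterial cord factor and for products of dead cells. It read 10.10 in control and 12.29 in DSS, a difference of 2.19 or 4.58-fold, which ranked 107th from the top of the 11163 genes. Clec4d encodes MCL, which pairs with Mincle. It read 10.66 and 12.07, or 2.66-fold higher. These neighbouring genes had the largest differences of the cluster.

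The other genes of the Dectin-2 cluster lay within 2-fold. Clec4n, the next gene in map order, encodes dectin-2, a receptor for fungal mannans. It read 10.71 in control and 10.84 in DSS, and its difference of 0.13 turned to -0.01 under loess centring of the arrays. Clec4a2 encodes the inhibitory receptor DCIR, and it read 9.74 and 10.18, a difference of 0.44. Its relatives Clec4a3 and Clec4a1 had differences of 0.71 (10.54 to 11.25) and 0.30 (10.33 to 10.63). Clec4b1, the activating receptor DCAR, read 7.57 and 7.74. Under the signal rule, Clec4b2 and Clec4a4 had differences of 0.48 and 0.25, from control signals of 4.36 and 4.68 that cannot be told from background. Of the 2 measured neighbours past the rule, the complement receptor gene C3ar1 had a difference of -0.46 and Necap1 one of 0.16. The genes of a cluster are close copies, and how far their probe sets cross-hybridise is not known from the files.

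Of the 3 genes at least 2-fold higher, Clec4e and Clec4d are neighbours, and Clec5a lies elsewhere on chromosome 6, outside their cluster. Their promoters are shown because all 3 genes had the same direction. Each is the 250 bases before the RefSeq start site in GRCm38.p6, 5′ to 3′ on the gene's strand. Capitals mark matches on either strand to the core of the myeloid factor PU.1 (GAGGAA), C/EBP (TTGCNNAA), AP-1 (TGANTCA), NF-kB (GGG and CC with 5 free bases between them) and MAF (TGCTGA), of which AP-1 and MAF matches can share bases.
Clec4e, chr6:123289872-123290121, minus strand: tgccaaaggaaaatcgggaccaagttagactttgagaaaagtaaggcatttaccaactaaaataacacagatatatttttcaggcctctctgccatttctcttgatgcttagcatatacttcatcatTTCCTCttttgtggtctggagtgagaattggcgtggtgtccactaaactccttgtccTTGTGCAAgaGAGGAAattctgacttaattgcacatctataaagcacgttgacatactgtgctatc
Clec4d, chr6:123261857-123262106, plus strand: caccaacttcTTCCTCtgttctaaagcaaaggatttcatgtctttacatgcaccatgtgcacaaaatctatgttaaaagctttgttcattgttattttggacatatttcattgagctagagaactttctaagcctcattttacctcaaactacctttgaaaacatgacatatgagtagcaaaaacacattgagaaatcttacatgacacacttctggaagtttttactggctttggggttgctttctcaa
Clec5a, chr6:40585806-40586055, minus strand: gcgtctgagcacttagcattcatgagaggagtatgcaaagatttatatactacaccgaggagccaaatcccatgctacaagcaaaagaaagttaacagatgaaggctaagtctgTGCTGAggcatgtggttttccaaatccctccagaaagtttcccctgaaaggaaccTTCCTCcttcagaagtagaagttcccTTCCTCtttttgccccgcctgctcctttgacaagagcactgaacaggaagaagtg
In the Clec4e window, a C/EBP match (TTGTGCAA) began 66 bases before the start and a PU.1 match 56 bases before it, with a further PU.1 match at 123. The Clec5a window held PU.1 matches at 81 and 55 and a MAF match at 136. In the Clec4d window the only match was a PU.1 core at 240. A PU.1 match was in 45.5% of the 55 promoter windows found for 51 of the lectin genes, and in 23.3% of all 32851 windows. For C/EBP the shares were 10.9% and 9.56%, for AP-1 12.7% and 6.75%, for NF-kB 27.3% and 45.8%, and for MAF 20% and 16.1%. A match to these letters is a description of the sequence and not a measured binding site.

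Genes of the dectin-1 cluster and related lectin-like receptors differed in both directions, and 1 of them reached 2-fold. Of 16 such genes 9 passed the rule, with 1 higher and 0 lower by 2-fold and 8 between, and the median difference was 0.49. The background at 2-fold was 3.99% higher and 3.03% lower. Of these 9 differences 6 were positive and 3 negative (Clec2i, Clec1b and Cd72), and of the 7 under the rule 2 were positive and 5 negative. Clec5a, whose product MDL-1 signals through the adaptor DAP12, read 8.13 in control and 9.67 in DSS, or 2.90-fold higher. Clec7a, which encodes the beta-glucan receptor dectin-1, read 9.91 and 10.86. Its difference of 0.94 lay just under 2-fold and reached 1.02 under median centring. Clec12a, an inhibitory receptor for uric acid crystals, read 8.51 and 9.17, a difference of 0.65. Clec9a, a receptor for actin exposed by dead cells and a marker of cross-presenting dendritic cells, had a difference of 0.80 from a control signal of 5.20, under the array's median. Beside it, the dendritic cell marker genes Flt3, Batf3 and Xcr1 had differences of 0.94, 0.10 and 0.09, the last under the signal rule. Over that whole list, 8 of 10 genes passed, 4 with positive and 4 with negative differences, among the latter Zbtb46 at -0.34. The median was 0.03, with 0 at least 2-fold higher and 1 lower (Tcf4, -1.06). The part of dendritic cells in the Clec9a signal was not tested.

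Most Clec2 genes, several of which encode ligands of NK cell receptors, lie in the same stretch of chromosome 6, and those past the rule differed in both directions. Clec2d encodes the ligand of the inhibitory receptor that Klrb1b encodes. It read 9.57 in control and 9.68 in DSS, and Klrb1b itself 9.49 and 9.55, with a Klrb1b difference that turned to -0.04 under loess centring. Clec2i, another such ligand, read 7.73 and 6.93, a difference of -0.80. Clec2h, a ligand made in gut epithelium, read 5.65 and 6.14. In the epithelial marker list, 6 of 10 genes passed the rule, with a median of 0.52, and 1 of them (Fabp2) was at least 2-fold higher. Car1, Muc2 and Cdh1 had differences of 0.83, 0.69 and 0.35, and Krt8 and Krt19 of 0.07 and -0.10. The cells had been sorted for CD45, and the part of epithelial cells in the Clec2h signal was not tested. Clec1b encodes the podoplanin receptor CLEC-2 of platelets, and it read 6.22 and 5.86. The gene of its ligand, Pdpn, read 10.09 and 8.18, or 3.76-fold lower. Beside Clec1b, the platelet marker genes Pf4 and Ppbp were 2.98-fold and 3.10-fold lower, in a list with 3 of 4 measured genes past the rule and a median of -1.58. The other platelet markers, Gp9 and Itga2b, had differences of -0.19 and -0.27, the last under the signal rule. Cd72, an inhibitory receptor of B cells and macrophages, read 10.21 and 10.03. The next gene after Clec7a in map order, Olr1, encodes the oxidised LDL receptor and lies outside the list. It read 6.04 in control and 9.27 in DSS, 9.34-fold higher.

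**Figure D2:**
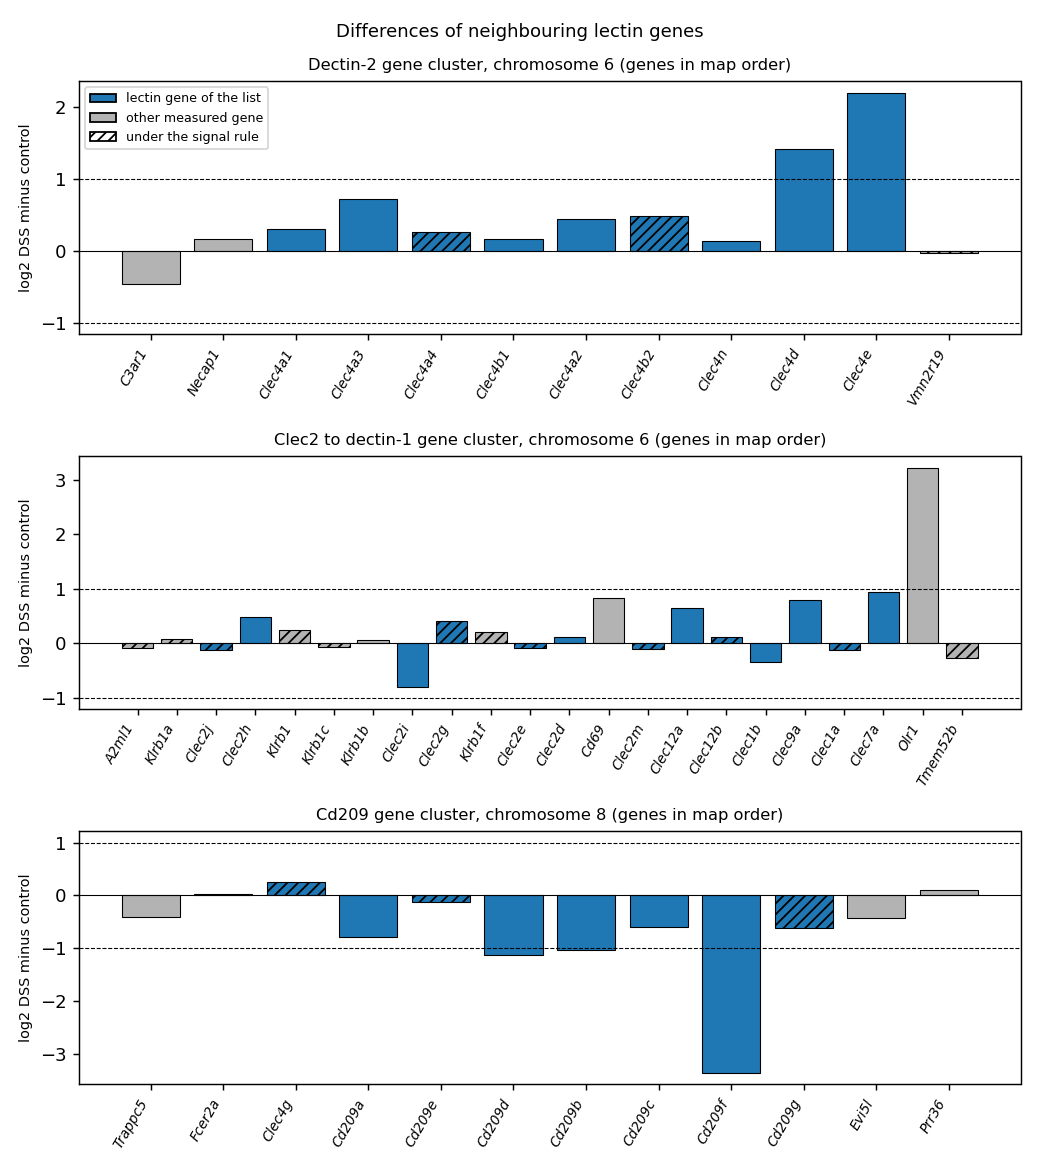
Log2 DSS minus control for measured genes in map order in 3 lectin gene clusters, with up to 2 flanking protein-coding genes on each side. Blue bars are lectin genes of the list, grey bars other genes, hatched bars genes under the signal rule, dashed lines 2-fold, and the vertical scales differ between panels. The Dectin-2 cluster has positive bars led by Clec4d and Clec4e, and in the Cd209 cluster every Cd209 gene has a negative bar, with Cd209f lowest at -3.36.

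Endocytic receptors of the mannose and galactose type include 5 of the 8 genes that were at least 2-fold lower. Of 13 genes in this class 8 passed the rule, all 8 with negative differences under each scaling, and their median was -1.09. Of the 8, 5 were at least 2-fold lower, beside a background of 3.03%. Cd209f and Cd209b are among these 5 but passed on the control array only, so their negative signs were forced. Mrc1, Mgl2 and Cd209d were at least 2-fold lower with both arrays at or above the median. Mrc1 encodes the mannose receptor CD206, which clears mannose-bearing glycoproteins. It read 12.26 in control and 11.07 in DSS, a difference of -1.20 or 2.29-fold. Mgl2 encodes the galactose-type lectin CD301b and read 8.56 and 7.10, 2.76-fold lower. Its chromosomal neighbour Clec10a, which encodes the related CD301a, read 6.69 and 6.26, a difference of -0.42. Of this pair, 1 gene thus reached 2-fold. Mrc2 stayed under the signal rule, at 5.41 and 5.31.

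The 7 Cd209 genes, mouse relatives of the human dendritic cell lectin DC-SIGN, lie together on chromosome 8. Each had a negative difference, also under both centrings, and 5 passed the signal rule. Of these, Cd209f and Cd209b passed on the control array only, which forces a negative sign. Cd209f read 8.84 in control and 5.49 in DSS, a difference of -3.36 or 10.3-fold. Since the DSS signal was under the array's median, where background is not separable from signal, this fold is not exact. Cd209d (SIGNR3) read 7.83 and 6.69, 2.20-fold lower. Cd209b, the marginal zone macrophage lectin SIGNR1, read 6.27 and 5.23, with the DSS signal under the median. Its difference of -1.04 was -0.96 under median centring and -0.92 under loess centring, both short of 2-fold. Cd209a and Cd209c had differences of -0.78 (8.95 to 8.17) and -0.59 (7.24 to 6.65). Cd209g and Cd209e, under the rule on both arrays, had differences of -0.62 and -0.13. Clec4g, the remaining lectin gene of the cluster, was the only gene with 2 probe sets. They disagreed in sign (0.26 and -0.52), and both were under the signal rule. Of the flanking genes past the rule, Trappc5 and Evi5l had differences of -0.40 and -0.42 and Prr36 one of 0.10.

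The promoters of Cd209f, Mrc1 and Mgl2 are shown for comparison with those of the higher genes, in the same form and with the same motifs in capitals.
Cd209f, chr8:4105765-4106014, minus strand: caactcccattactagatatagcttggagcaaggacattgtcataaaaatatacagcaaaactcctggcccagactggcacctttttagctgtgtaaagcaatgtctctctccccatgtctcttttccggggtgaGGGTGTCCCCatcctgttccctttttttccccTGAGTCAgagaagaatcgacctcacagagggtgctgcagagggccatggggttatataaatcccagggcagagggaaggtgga
Mrc1, chr2:14229164-14229413, plus strand: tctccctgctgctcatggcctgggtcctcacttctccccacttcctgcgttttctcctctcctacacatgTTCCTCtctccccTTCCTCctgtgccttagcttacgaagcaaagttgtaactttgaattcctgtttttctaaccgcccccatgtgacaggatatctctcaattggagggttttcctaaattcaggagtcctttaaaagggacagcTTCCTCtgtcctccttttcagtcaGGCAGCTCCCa
Mgl2, chr11:70130107-70130356, plus strand: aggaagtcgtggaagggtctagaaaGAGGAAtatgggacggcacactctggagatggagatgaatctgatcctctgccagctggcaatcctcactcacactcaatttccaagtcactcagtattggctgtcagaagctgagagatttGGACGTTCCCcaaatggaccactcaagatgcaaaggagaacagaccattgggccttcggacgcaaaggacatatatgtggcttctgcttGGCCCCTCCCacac
The Cd209f window held an AP-1 match (TGAGTCA) that began 83 bases before the start and an NF-kB match at 115, and no PU.1 match. Mrc1 had PU.1 matches at 180, 167 and 35 and an NF-kB match at 11. Mgl2 had a PU.1 match at 225 and NF-kB matches at 103 and 14. Windows were found for 6 of the 8 genes at least 2-fold lower and for all 3 of the higher ones. NF-kB letters were in 5 of the 6 and 0 of the 3, PU.1 letters in 3 and 3, C/EBP letters in 2 and 1, AP-1 letters in 1 and 0, and MAF letters in 1 and 1. With so few windows these counts are a description only.

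Among collectins and the other C-type lectin domain genes, 5 of 10 passed the rule, with a median of -0.40. Of the 5, 2 were at least 2-fold lower (Colec12 and Cd93), beside a background of 3.03%, and 3 lay between. Colec12 passed on the control array only, which forces a negative sign. Colec12 encodes a scavenger receptor with a lectin domain that binds oxidised lipoprotein and microbes. It read 8.78 in control and 5.55 in DSS, a difference of -3.23 or 9.39-fold. Its DSS signal was also under the median, so the fold is not exact. Cd93, a transmembrane receptor with a role in the clearance of dying cells, read 11.87 and 10.79, 2.11-fold lower. Its difference of -1.08 was -0.99 under median centring. Clec16a, an endosomal protein gene of autophagy, had a difference of -0.40 (6.67 to 6.27). Colec11, a soluble collectin of the complement lectin pathway, had one of -0.28 (5.94 to 5.66), and Clec18a one of -0.16 (5.91 to 5.75). The 5 genes under the rule had differences of -0.44 to 0.49. Resident macrophage markers had negative differences on the same arrays, from -5.29 for Vsig4 to -0.42 for Mertk. The part of these cells in the lower lectin signals was not tested.

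**Figure D3:**
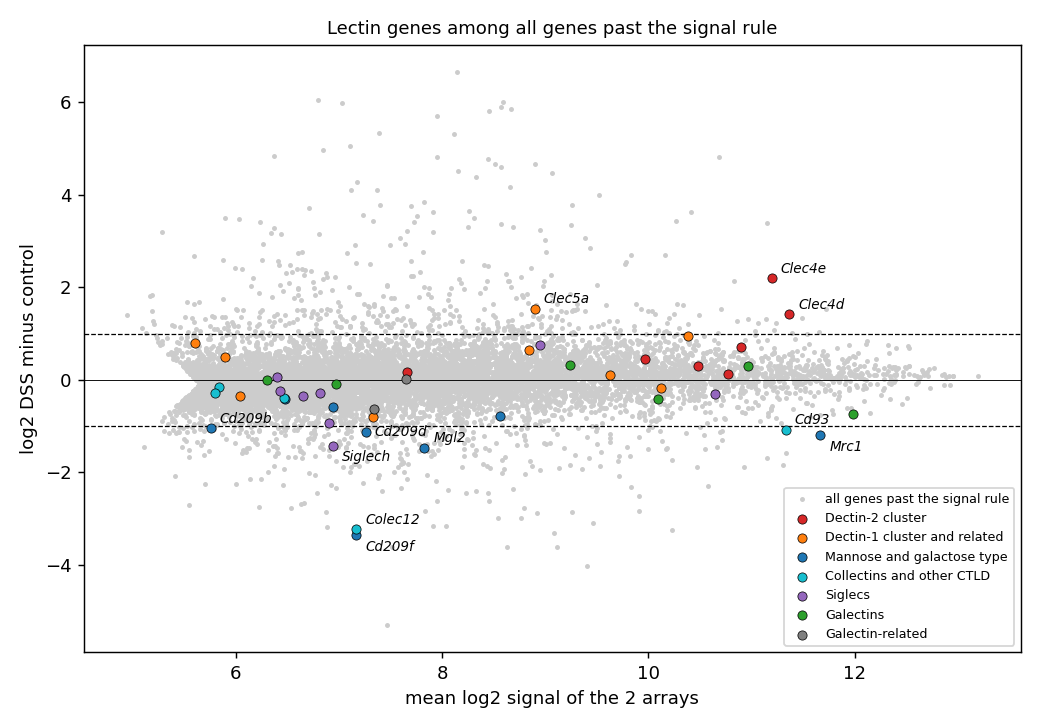
Log2 DSS minus control against the mean log2 signal of both arrays, with all 11163 genes past the signal rule in grey and the 45 lectin genes coloured by role. Dashed lines mark 2-fold and the 11 genes beyond them are named. Clec4e lies at 2.19 and Clec4d at 1.41, and Cd209f and Colec12 lie at -3.36 and -3.23.

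All 8 siglec genes passed the signal rule, with 0 higher and 1 lower by 2-fold, and their median was -0.29. Over all genes past the rule, 3.99% were higher and 3.03% lower by 2-fold. Siglech encodes a DAP12-coupled receptor best known from plasmacytoid dendritic cells. It read 7.66 in control and 6.22 in DSS, 2.70-fold lower. Among other genes known from those cells, Tcf4 read 9.60 and 8.54 (2.08-fold lower, and -0.97 under median centring), Bst2 9.30 and 9.06, Irf8 8.51 and 8.47 and Ly6d 6.28 and 6.50. Siglec1 encodes sialoadhesin (CD169), a receptor of tissue macrophages that holds sialylated particles. It read 7.36 and 6.44, and its difference of -0.93 lay just short of 2-fold. Siglece, an inhibitory receptor of mouse neutrophils and macrophages, read 8.56 and 9.32, and its difference of 0.76 was the highest among the siglecs. Neutrophil markers were higher on the same array, with a median of 4.47, and their part in this value was not tested.

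The other siglecs differed by less than 0.4 log2 units. Cd33, an inhibitory myeloid siglec, read 10.79 in control and 10.50 in DSS. Siglec15, known from osteoclasts, read 6.83 and 6.48. Cd22 and Siglecg, inhibitory siglecs of B cells, had differences of -0.28 (6.95 to 6.67) and 0.07 (6.37 to 6.44). Only 2 of 7 measured B cell markers passed the signal rule (Cd79b, difference 0.10, and Blk, -0.19), and Ms4a1 and Pax5 were under it on both arrays. Siglecf, the eosinophil and alveolar macrophage siglec, read 6.54 and 6.30. Of 6 measured eosinophil markers 3 passed, with differences of -0.16 to -0.02. In the stretch of chromosome 7 that holds Siglecf, Siglecg, Cd33 and Siglece, the 4 genes had differences in both directions.

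Galectin genes showed no difference of 2-fold. Of 8 galectins 6 passed the rule, and their median of -0.06 turned to 0.03 under both centrings. Lgals1, the galectin best known for restraining T cells, read 12.35 in control and 11.62 in DSS, a difference of -0.73 or 1.66-fold. Lgals3, the classic macrophage galectin Mac-2, read 10.30 and 9.89, a difference of -0.42. Lgals9, a ligand of the receptor Tim-3, read 9.08 and 9.40, and Havcr2, the gene of that receptor, 9.21 and 10.03. Lgals8, which marks damaged vesicles for autophagy, read 10.82 and 11.12. The epithelial galectin gene Lgals4 read 7.02 and 6.93. Lgals7, another, read 6.31 and 6.29, and its difference of -0.01 turned positive under both centrings. Lgals2 and Lgals12 were under the signal rule. Of the related genes, Lgalsl read 7.65 and 7.02, a difference of -0.63, and Lgals3bp, a secreted glycoprotein bound by galectin, 7.64 and 7.67.

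Partner genes of these receptors came from lists apart from the group. Their counts at 2-fold stand beside a background of 3.99% higher and 3.03% lower over all genes past the rule. In the list of C-type lectin receptor adaptors and signalling, 17 of 20 genes were measured and all 17 passed the rule, with 2 higher and 0 lower by 2-fold and the median at 0.25, which was 0.08 under loess centring. The Src family kinase gene Fgr read 7.43 in control and 9.41 in DSS, 3.94-fold higher. Malt1, the paracaspase that acts with Card9 and Bcl10, read 10.17 and 11.18, 2.01-fold higher, and 0.87 (log2) under loess centring. Syk read 8.85 and 9.51, and Card9 6.33 and 6.18. The adaptor gene Fcer1g read 11.63 and 11.85, and Tyrobp, which encodes DAP12, 12.26 and 12.52. Nfatc2, a calcium-regulated factor, lay furthest the other way, at -0.76. Beside the differences of 2.19 for Clec4e and 1.41 for Clec4d, that of the chain Fcer1g, through which both receptors signal, was 0.22 and that of Syk 0.66. Of 8 genes on the ITIM side, 1 was at least 2-fold higher (Pilra, a paired receptor, 9.53 to 10.87) and 0 were lower, with a median of 0.01 that was -0.10 under loess centring. The phosphatase gene Ptpn6 had a difference of 0.54 and Inpp5d one of -0.39.

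Genes that make, move or remove the glycan ligands were mostly within 2-fold, beside the same background of 3.99% higher and 3.03% lower. In the sialic acid list 22 of 24 genes passed, with 0 higher and 2 lower by 2-fold and the median at -0.30. Npl, the lyase that breaks down sialic acid, read 10.53 and 8.90, 3.11-fold lower. St6gal1, which makes the linkage that Cd22 binds, read 7.80 and 6.74, 2.07-fold lower, and its difference of -1.05 was -0.97 under median centring. St3gal4 lay furthest the other way, at 0.81. Among N-glycan branching and galectin ligand genes 17 of 18 passed, with a median of -0.21. Gcnt2, a branching enzyme of poly-lactosamine chains, was 3.97-fold higher (7.09 to 9.08), and the mannosidase gene Man1a was 2.54-fold lower (10.30 to 8.95). Of 22 measured lectins outside the group 16 passed, with a median of 0.06, 3 at least 2-fold higher and 1 lower. Besides Olr1, the NK-type receptor genes Klrk1 and Klrd1 were 2.86-fold and 2.46-fold higher, from 5.84 and 6.72 to 7.35 and 8.02. The T and NK cell list beside them had 2 of 9 genes past the rule, Gzma at 1.68 and Cd4 at -1.65, and its part was not tested. The ficolin gene Fcna was the lower one, at 10.43 and 6.82.

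**Figure D4:**
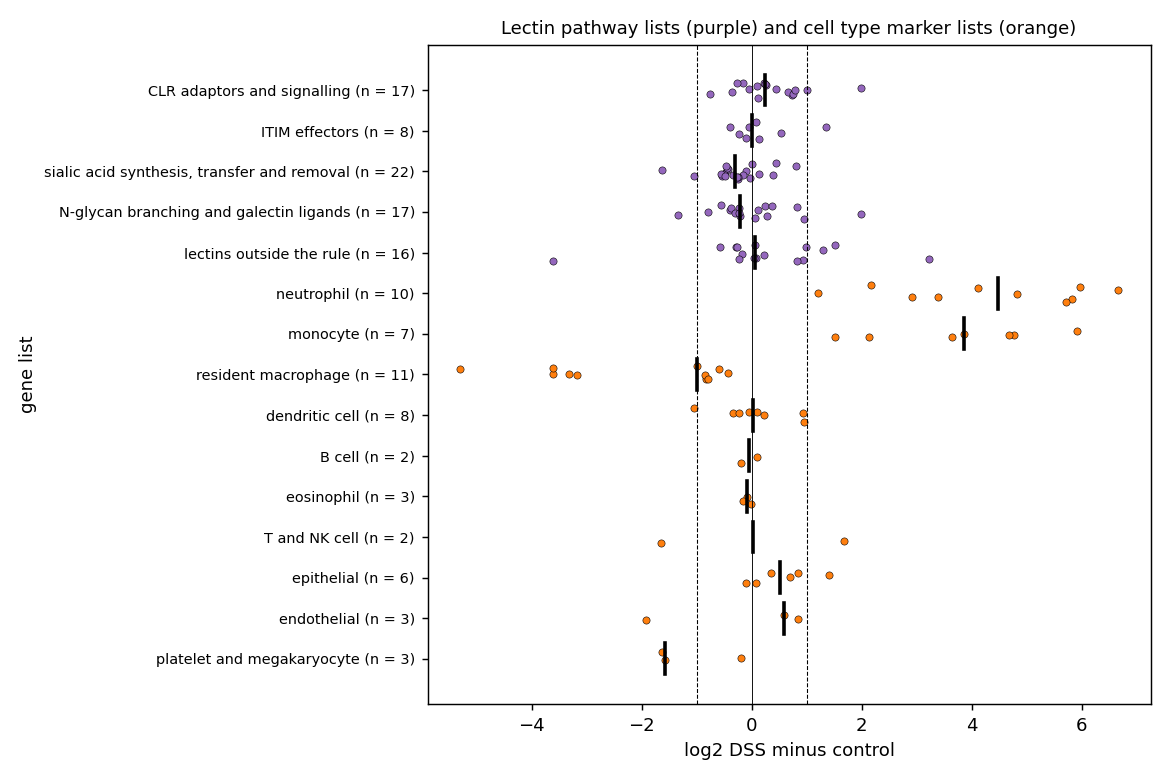
Log2 DSS minus control for genes past the signal rule in 5 lists of lectin pathway genes (purple) and 10 lists of cell type markers (orange). Each point is a gene, the black bar is the list's median, the number of genes is beside the name, and dashed lines mark 2-fold. Neutrophil and monocyte markers lie to the right (medians 4.47 and 3.85), resident macrophage markers to the left (-0.99), and the medians of the pathway lists lie between -0.30 and 0.25.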

How the data were processed

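Biotin-labelled cRNA of sorted colonic macrophages was hybridised by an Affymetrix procedure, per the labels' protocols, with 1 array per group. The authors deposited log2 signals for 35556 probe sets. RMA is named in the submitters' processing notes; no settings, array design or genome build are named there. RMA compresses differences of dim genes, and no detection calls were used. A hybridisation batch and the treatment cannot be told apart.

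Values were used as deposited. Genes were named from the platform annotation, and all 66 lectin genes matched RefSeq (GRCm38.p6) by Entrez identifier and symbol. Where a gene had several probe sets, the brightest on average was used. Array medians rest on the 28939 probe sets from the lowest annotated identifier upward. No test was possible, so counts at 2-fold stand beside those of all genes. As a yardstick, probe sets of 1 gene varied with a pooled SD of 0.28 (641 genes), which covers probe noise only. Every gene past the signal rule was named, and partner genes at 2-fold, furthest the other way or of known function beside a member. Genes named for their function or map position, such as Syk, Card9, Ptpn6, Pdpn and Olr1, were picked with their values known. The members and lists were chosen with earlier results of these data known. Alternatives were median and loess centring (span 0.4), the mean of probe sets, other signal rules, a floor at the 25th percentile, and 1.5-fold and 3-fold. Only the step from probe sets to gene differences was tested, on a noisy copy of the control array with known differences put in. That test did not cover the alternatives, the lists or the promoter matches. Python 3.11.15, numpy 2.4.6, pandas 2.3.3, statsmodels 0.14.6 and matplotlib 3.10.9 were used.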

Additional observations from a re-analysis of the deposited data

How the results depend on the processing

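The number of lectin genes at least 2-fold higher was 3, and 4 under median centring, and the number at least 2-fold lower was 8, with 6 under median centring and 7 under loess centring. With both arrays required at or above the median, 5 were lower, because Cd209f, Colec12 and Cd209b then drop out. At 1.5-fold 8 were higher and 14 lower, and at 3-fold 1 and 2, which follows from the size counted. The median difference stayed negative, between -0.24 and -0.15, under the alternatives run. Clec4n under loess centring, and Lgals7 under both centrings, were the only ones of the 45 lectin genes past the rule whose sign turned. No paired analysis was possible because each group holds 1 array. With 1 array per group, no alternative measures the spread between mice.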
